A study of Mus musculus with 72 samples.

Results

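The 10 genes described here encode the enzymes and regulators that make and break down polyamines, and those that use spermidine to build hypusine: Odc1, Amd1, Srm, Sms, Azin1, Sat1, Smox, Dhps, Dohh and Eif5a. They were chosen by symbol from the 55487 genes of the deposited count table, and 10 of 10 were found, each with 1 gene identifier. RNA was sequenced in 52 libraries, which form 13 groups of 4 lettered A to D, from CD8+ T cells of OT-I mice. OT-I mice carry a transgenic T cell receptor that recognises the SIINFEKL peptide of ovalbumin. Whole splenocytes with red cells lysed were the starting material for every group, in RPMI medium with 10% serum, and their age was not given in the sources used here. Unstimulated cells were 1 group. The other 12 groups were activated with 10 ng/mL of the peptide and 100 IU/mL of human IL-2, and were taken at 4 h, 24 h or 48 h with vehicle, with 1 µM CB-839, with 1 µM DON or in medium without glutamine. CB-839 inhibits glutaminase, the enzyme that turns glutamine into glutamate, and DON is a diazo analogue of glutamine that blocks many enzymes that use glutamine. The protocols name DMSO as the solvent of CB-839 and PBS as that of DON, and 1 vehicle group at each time stands for both, so the 3 treatments of a time share their control libraries. No label states that libraries sharing a group were separate animals or cultures. The p-values therefore rest on a spread that may be technical.

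Polyamines are small positively charged molecules that dividing cells make in large amounts. Ornithine decarboxylase (Odc1) makes putrescine from ornithine, and S-adenosylmethionine decarboxylase (Amd1) provides the aminopropyl group that spermidine synthase (Srm) and spermine synthase (Sms) add in turn. Ornithine can be derived from glutamine through glutamate or from arginine. Antizymes bind ornithine decarboxylase and send it to the proteasome, and the antizyme inhibitor Azin1 binds antizymes in its place. Sat1 acetylates spermidine and spermine for export or oxidation, and Smox oxidises spermine back to spermidine. Dhps and Dohh convert 1 lysine of the translation factor Eif5a into hypusine, with spermidine as the donor.

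The genes lie on 8 chromosomes in the mm10 coordinates of the deposited table. Odc1 is at chr12:17544794-17551505 on the plus strand, Amd1 at chr10:40287458-40302188 on the minus strand, Srm at chr4:148591503-148594993 on the plus strand and Sms at chrX:157443855-157492287 on the minus strand. Azin1 is at chr15:38487427-38519266 and Sat1 at chrX:155213132-155216449, both on the minus strand, and Smox is at chr2:131491496-131525922 on the plus strand. Dhps is at chr8:85071757-85075162 and Dohh at chr10:81384428-81388352, both on the plus strand, and Eif5a is at chr11:69916714-69921958 on the minus strand. Counting used no strand, and 47.461% of the exon bases of Dohh are shared with exons of Gm48551 on its own strand, so the counts of Dohh are uncertain. The shared part is 5.508% for Dhps, with Wdr83 on the other strand, and 5.723% for Azin1, with Gm49077 on the other strand. Amd1 has a near-identical copy, Amd2, with which reads can be shared, so its counts are uncertain as well.

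Promoters are shown because the chromatin marks measured at 48 h bear on them. Of the 10 genes, 8 matched the RefSeq promoter sequences of GRCm38.p6 (the mm10 build), which run from 250 bases before to 50 bases after an annotated start. Sequence upstream of the deposited gene starts of Odc1 (chr12:17544623-17544793, plus strand) and Amd1 (chr10:40302189-40302438, minus strand) is printed 5′ to 3′ with the letters GGGCGG, or CCGCCC on the other strand, in capitals. These letters are the core of a GC box.
Odc1 upstream: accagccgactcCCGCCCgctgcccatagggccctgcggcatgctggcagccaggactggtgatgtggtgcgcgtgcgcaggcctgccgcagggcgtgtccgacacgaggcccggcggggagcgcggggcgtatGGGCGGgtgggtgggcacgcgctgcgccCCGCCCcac
Amd1 upstream: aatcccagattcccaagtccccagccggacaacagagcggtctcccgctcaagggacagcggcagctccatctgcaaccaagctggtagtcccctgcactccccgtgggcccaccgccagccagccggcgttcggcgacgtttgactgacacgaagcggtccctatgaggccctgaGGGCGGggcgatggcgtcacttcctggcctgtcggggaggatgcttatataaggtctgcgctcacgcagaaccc
The letters CACGTG, the E-box that MYC and MAX proteins bind, were searched on both strands as well. They were present in promoters of Sms, Dohh and Eif5a, and these windows of 30 bases show each distinct match in capitals on the gene's own strand.
Sms (chrX:157492466-157492495): cccagcggggttCACGTGcatttaaagaaa
Dohh (chr10:81384424-81384453): gcccagcatggtCACGTGgccatcaagatg
Eif5a (chr11:69921443-69921472): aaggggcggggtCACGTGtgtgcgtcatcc
Eif5a (chr11:69920791-69920820): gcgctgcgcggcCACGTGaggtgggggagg
Across all 32851 promoters of the same length, 35.7% held GGGCGG and 7.15% held CACGTG. A promoter of 7 of the 8 matched genes held GGGCGG, and Dhps had none. Counted by gene in the same way, 38.2% of 27025 genes held GGGCGG and 8.09% held CACGTG. Eif5a had 6 promoters and Sms 2, of which 3 and 1 held GGGCGG. No promoter of the 8 held TATAAA, present in 13.6% of all promoters, or TGATGNAA, the form of the amino acid response element searched here, present in 3.97%. Only these exact letters were searched, so other forms of a TATA box, such as TATATAAG late in the Amd1 sequence, were not counted. A match of letters is a description of the sequence and not a measured site.

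Histone marks at 48 h were available as the authors' merged peak lists, 1 for each treatment and mark from 2 CUT&RUN samples. CUT&RUN maps where an antibody-bound protein sits on DNA. H3K27ac marks active promoters and enhancers, and H3K27me3 marks repressed genes. In the vehicle H3K27ac list of 9681 peaks, a peak lay within 1000 bases of the start of 7 of the 10 genes, against 42% of the 16173 genes tested at 48 h. Those were Odc1, Amd1, Srm, Sms, Sat1, Dohh and Eif5a, while Azin1, Smox and Dhps had none. By signal, these peaks ranked 1702 for Eif5a, 4262 for Sat1, 5576 for Dohh, 6454 for Sms and 6753 for Amd1. The peaks of Srm and Odc1 ranked 9624 and 9650 of 9681, near the weakest of the list. In the list from medium without glutamine, with 6687 peaks, 3 genes had such a peak (Odc1, Sms and Eif5a), against 28.6% of all genes. There the peaks of Sms and Eif5a ranked 1061 and 3412 by signal, and that of Odc1 ranked 6635, again near the weakest. The CB-839 and DON H3K27ac lists held 117 and 33 peaks, covered 0.643% and 0.21% of the genes tested, and held none of the 10. In the 4 H3K27me3 lists, of 3533 to 13556 peaks, none of the 10 promoters had a peak, against 10.6% of genes with vehicle, 11% with CB-839, 3.74% with DON and 7.20% without glutamine. The lists differ in length and have no replicates of their own, so a peak missing from one of them shows no change of the mark.

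Total counts per library ran from 25626587 to 51005409, over 22061 to 32295 genes with a count. The smallest count of any of the 10 genes in a library was 231, for Smox with DON at 24 h. The 8 CD8 T cell markers examined were each above 1 CPM (the count scaled to a fixed library total) in every group, including Cd8a and Cd8b1. Summed marker shares are given as group means. B cell markers summed to 0.164% of counts in unstimulated cells, 0.184% to 0.211% at 4 h, 0.0286% to 0.0569% at 24 h and 0.0428% to 0.0765% at 48 h, with the highest shares at 24 h and 48 h under DON. The highest group mean of the 8 myeloid markers was 0.00841%, at 4 h without glutamine, where single libraries ran from 0.00169% to 0.0241%. At 48 h these markers summed to 0.00258% with DON against 0.000252% with vehicle, where 2 of the 8 were at 0. CD8 T cell markers summed to 0.305% with DON against 0.23% with vehicle at 48 h. CD4 T cell markers summed to 0.00335% without glutamine against 0.0012% with vehicle at 24 h, and to 0.00345% against 0.000761% at 48 h. Cd4 itself was not higher without glutamine, at 0.036 against 0.0374 CPM at 24 h and 0.0533 against 0.101 CPM at 48 h. The part that these other cells have in the results below was not tested. In bulk RNA, fewer cells of a type and less RNA per cell cannot be told apart.

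Levels are given in CPM, with library totals scaled by TMM factors among the libraries of the same time, with unstimulated cells scaled together with the vehicle libraries. Divided by exon length, Eif5a had the highest level of the 10 genes in each of the 13 groups, at 1170 CPM per kb with vehicle at 48 h. Srm was 2nd and Odc1 3rd in the 12 activated groups, at 364 and 212 CPM per kb with vehicle at 48 h, and the order of these 2 was the other way round in unstimulated cells. Smox was the lowest of the 10 in all groups at 24 h and 48 h, at 2.59 CPM per kb with vehicle at 48 h. The spread of group means over the 13 groups was 14.7-fold for Srm, 9.90-fold for Smox, 6.29-fold for Eif5a and 6.08-fold for Odc1. Sat1 moved least, with a 1.86-fold spread from 113 CPM with CB-839 at 24 h to 60.7 CPM with vehicle at 48 h. Groups of different times were scaled in separate sets, so these spreads, and any order of groups across times, also carry those scalings.

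**Figure D1:**
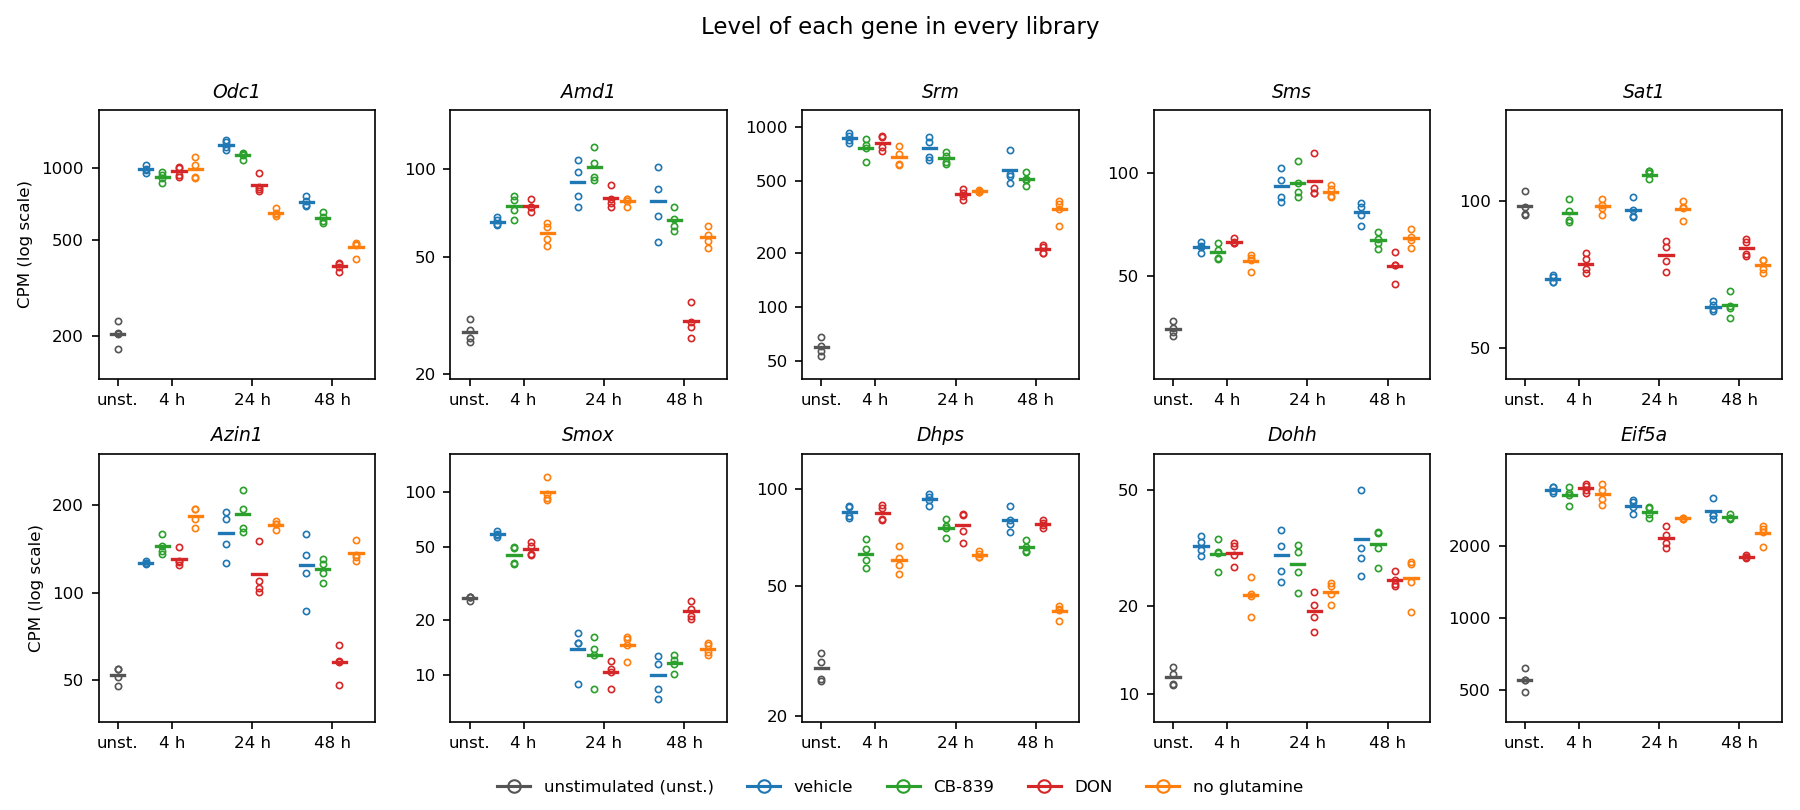
Level of each of the 10 genes (CPM, log scale) in every library, by time and treatment; each open point is 1 library and each bar a group mean of 4 libraries. Srm rises from a mean of 59.7 CPM in unstimulated cells to 877 CPM with vehicle at 4 h, and Smox is highest at 4 h without glutamine, at 100 CPM.

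When the groups of each gene were put in order of their mean, most neighbours overlapped in their libraries. Odc1 was the most finely ordered, with overlap in 6 of 12 neighbouring pairs. It ran from 1240 ± 54.6 CPM with vehicle at 24 h (SD, n = 4) to 204 ± 21.5 CPM in unstimulated cells, and the 3 lowest activated groups were CB-839, no glutamine and DON at 48 h, at 618 ± 27.7, 466 ± 31.7 and 389 ± 14.8 CPM. Srm, Sat1, Smox and Dhps overlapped in 8 of 12 pairs, and Sms and Eif5a in 9. Amd1, Azin1 and Dohh overlapped in 11 of 12 pairs, so most of the positions of their groups cannot be told apart by these ranges. The 1 pair of neighbours of Amd1 without overlap was no glutamine at 48 h (58.5 ± 4.22 CPM) above DON at 48 h (30.2 ± 3.73 CPM). For Azin1 it was DON at 24 h (116 ± 23.2 CPM) above DON at 48 h (57.7 ± 7.42 CPM). The ranges of Amd1 and Azin1 with DON at 48 h overlapped those of unstimulated cells (27.9 ± 2.21 and 52.3 ± 3.32 CPM), although the groups were scaled in separate sets of libraries and were not tested against each other.

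Activation with vehicle raised the synthesis and hypusine genes within 4 h. Of the 10 genes, 9 rose and 1 fell at 4 h, 8 rose and 1 fell at 24 h, and 8 rose and 2 fell at 48 h (edgeR quasi-likelihood test with Benjamini-Hochberg adjustment over 18317 genes, adjusted p under 0.05). Among all genes tested, 74.9%, 84.2% and 83.4% changed at these times, with 33.9%, 38.7% and 38.3% higher and 41%, 45.5% and 45.1% lower, so that a call alone says little here and the sizes matter more. The median log2 fold change was 1.42, 1.68 and 1.49 over the 10 genes, and -0.21, -0.18 and -0.16 over all genes. Scaling to library totals alone moved the last 3 values to -0.45, -0.48 and -0.44.

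Srm, which makes spermidine, rose most. Its levels in libraries A to D were 60.4, 57.1, 67.9 and 53.3 CPM in unstimulated cells, and 934, 898, 823 and 852 CPM with vehicle at 4 h. The groups lie far apart, with a log2 fold change of 3.90 (SE 0.13, adjusted p = 1.83e-15), or 15-fold. Odc1, the first enzyme of the pathway, was at 204, 230, 205 and 177 CPM in unstimulated cells and at 1030, 980, 950 and 984 CPM with vehicle at 4 h, a 4.92-fold rise (log2 2.30, SE 0.08, adjusted p = 1.4e-15). It was at 1300, 1280, 1220 and 1180 CPM at 24 h, above every 4 h library, and fell to 763, 728, 697 and 696 CPM at 48 h. Amd1 rose by 1.27 (SE 0.15) and Sms by 0.82 (SE 0.08) on the log2 scale at 4 h, and both stood higher at 24 h, at 1.71 (SE 0.15) and 1.40 (SE 0.08) above unstimulated cells.

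The hypusine genes rose with the synthesis genes. Eif5a, the factor that carries hypusine, was at 550, 553, 617 and 492 CPM in unstimulated cells and at 3500, 3510, 3310 and 3370 CPM with vehicle at 4 h. That is a 6.30-fold rise (log2 2.66, SE 0.08, adjusted p = 4.67e-16), and it was still 5-fold above unstimulated cells at 48 h. Dhps, which performs the first step of the modification, rose 3.09-fold at 4 h, 3.35-fold at 24 h and 2.83-fold at 48 h. Dohh, which completes it, rose 2.88-fold, 2.64-fold and 2.95-fold at the same times.

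The catabolic genes followed other courses. Smox, the spermine oxidase, was at 26.8, 26.9, 25.4 and 26.9 CPM in unstimulated cells and rose to 56.9, 58, 58.7 and 60.8 CPM with vehicle at 4 h (log2 1.17, SE 0.15, adjusted p = 1.18e-06). At 24 h its libraries held 17.1, 15, 15.1 and 8.96 CPM and at 48 h 8.46, 7.45, 12.8 and 11.5 CPM, so every later library lay below every unstimulated one. The fall below unstimulated cells was -0.90 at 24 h (SE 0.16, adjusted p = 3.47e-05) and -1.41 at 48 h (SE 0.16, adjusted p = 1.66e-07). Sat1, the acetyltransferase, fell at 4 h by 0.47 and at 48 h by 0.69 on the log2 scale (SE 0.06 for both), and at 24 h it differed from unstimulated cells by -0.01 (SE 0.06, adjusted p = 0.875), or by -0.31 with library totals alone (adjusted p = 0.000107). Azin1, the antizyme inhibitor, rose 2.47-fold at 4 h, 3.12-fold at 24 h and 2.38-fold at 48 h.

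**Figure D2:**
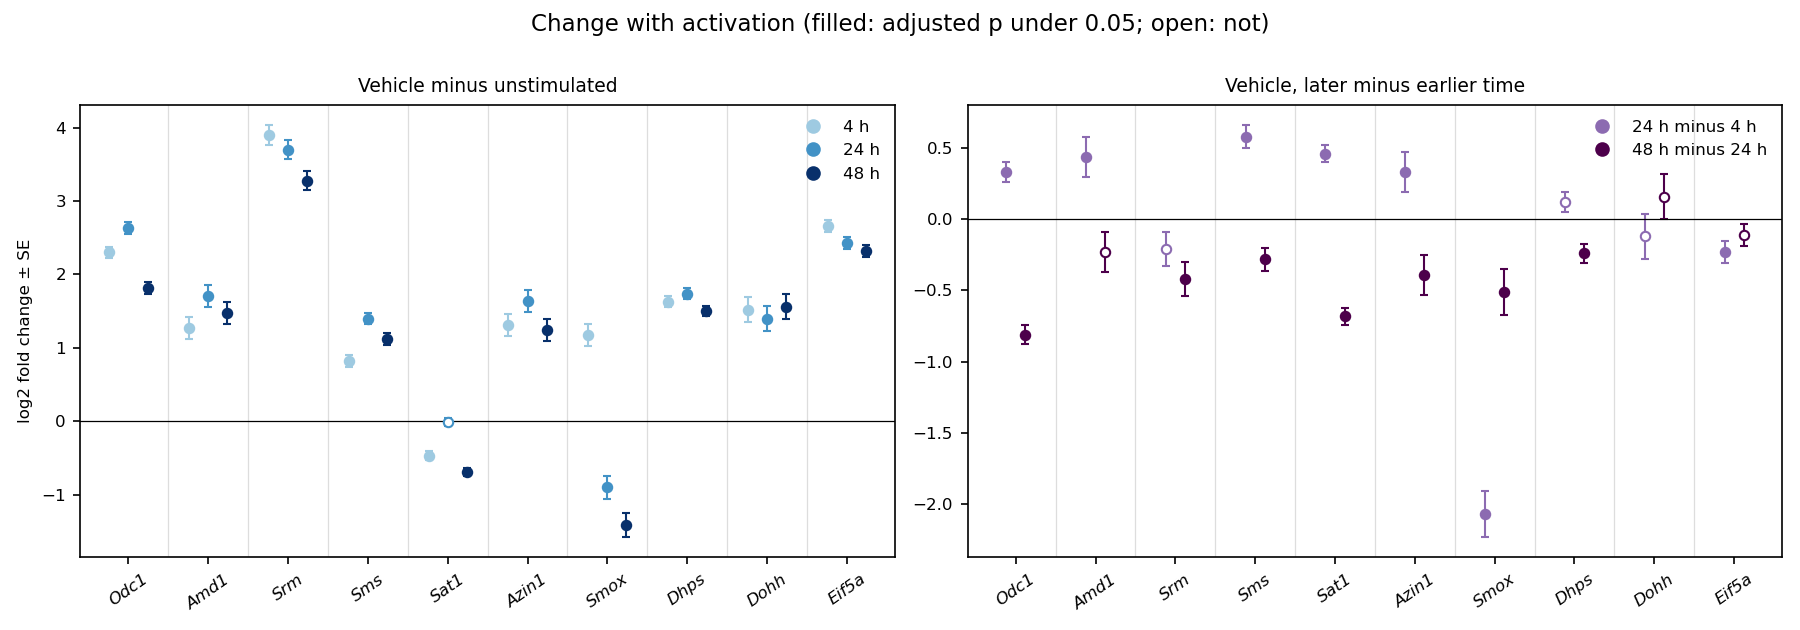
Log2 fold change with its standard error for the 10 genes, with vehicle at 4 h, 24 h and 48 h against unstimulated cells (left) and between successive times with vehicle (right); filled points passed an adjusted p of 0.05. Srm stands highest at the 3 times, at 3.90, 3.70 and 3.28, and Smox passes from 1.17 at 4 h to -1.41 at 48 h.

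Between 4 h and 24 h with vehicle, 5 genes rose (Odc1, Amd1, Sms, Sat1 and Azin1) and 2 fell (Smox and Eif5a), where 74.1% of all genes changed, 36.4% up and 37.8% down. The fall of Smox was 4.19-fold (log2 -2.07, SE 0.16, adjusted p = 9.24e-10). The next largest change was the rise of Sms by 0.58 (SE 0.08). Srm differed by -0.21 and was called lower under 5 alternatives: RLE factors, library totals, DESeq2, and the fit of the 8 libraries compared with or without the replicate block (-0.26 to -0.30, adjusted p = 0.00103 to 0.0363). The call of Azin1 was lost with RLE factors, library totals and DESeq2 (adjusted p = 0.117 to 0.127). That call (0.33, SE 0.14, adjusted p = 0.045) was also lost without vehicle library B, C or D at 4 h or library C or D at 24 h (adjusted p = 0.0591 to 0.126), and that of Eif5a (-0.23, SE 0.08, adjusted p = 0.0139) without library A or B at 4 h or C or D at 24 h (adjusted p = 0.0546 to 0.074).

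Between 24 h and 48 h, 7 genes fell and 0 rose, where 16.8% of all genes fell, 15.6% rose and 32.5% changed in all. Odc1 fell by 0.81 (SE 0.07, adjusted p = 7.76e-08) and Sat1 by 0.68 (SE 0.06, adjusted p = 2.16e-08) on the log2 scale. Srm, Sms, Azin1, Smox and Dhps fell by 0.42, 0.28, 0.39, 0.51 and 0.24, and these 5 calls were each lost in at least 1 fit with a library left out (adjusted p = 0.0505 to 0.153). Vehicle library C at 48 h was at an end of its group's range for several genes. It held the lowest value of Amd1 (56.2 CPM against 69.4 to 102) and of Azin1 (86.8 CPM against 117 to 159). It held the highest value of Srm (752 CPM against 492 to 548) and of Dohh (49.8 CPM against 25.3 to 31.6).

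CB-839 was followed by small differences from vehicle. Dhps was lower at all 3 times, by 1.35-fold at 4 h, 1.22-fold at 24 h and 1.21-fold at 48 h, and Sat1 was higher at 4 h and 24 h. Of the 10 genes, 2 rose and 2 fell at 4 h (12.5% of all 18274 genes changed, 5.85% up and 6.64% down), 1 rose and 1 fell at 24 h (4.95% of 16269 genes, 2.47% up and 2.48% down) and 0 rose and 3 fell at 48 h (15.2% of 16173 genes, 8.5% up and 6.73% down).

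Dhps at 4 h was at 60.2, 70.2, 56.8 and 65.2 CPM with CB-839 and at 88.1, 87.9, 82.4 and 81.1 CPM with vehicle. Every treated library lay below every vehicle library (log2 -0.43, SE 0.07, adjusted p = 0.00036). At 24 h the values were 80.8, 76.6, 75.4 and 70.6 CPM against 96.1, 94.2, 92.1 and 88.3 CPM, again without overlap (-0.29, SE 0.06, adjusted p = 0.00927). At 48 h Dhps held 64.3, 69.5, 66.2 and 63.6 CPM against 79.9, 73.3, 88.1 and 77.8 CPM (-0.28, SE 0.06, adjusted p = 0.00305). The 24 h and 48 h calls of Dhps were lost in the fit of all 52 libraries (adjusted p = 0.107 and 0.0582). Sat1 at 4 h was at 95.3, 91.5, 101 and 90.5 CPM with CB-839 against 68.2, 68.3, 69.7 and 70.5 CPM with vehicle, a rise of 0.45 (SE 0.04, adjusted p = 3.85e-06), and at 24 h it rose by 0.24 (SE 0.05, adjusted p = 0.00894).

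At 4 h Smox fell by 0.37 with CB-839 (SE 0.09, adjusted p = 0.0117) and Azin1 rose by 0.19 (SE 0.06, adjusted p = 0.0468). The call of Smox was lost without CB-839 library A or C (adjusted p = 0.0509 and 0.051), and that of Azin1 when any library of the 2 groups but CB-839 library B was left out (adjusted p = 0.0559 to 0.169). At 48 h Odc1 and Sms fell by 0.22 (SE 0.06, adjusted p = 0.0106) and 0.27 (SE 0.07, adjusted p = 0.0104). The call of Odc1 was lost in the fit of all 52 libraries (adjusted p = 0.116), and those of Odc1, Sms and Dhps with the replicate letter as a block among the 8 libraries compared (adjusted p = 0.163, 0.133 and 0.132), where 331 of 14702 genes were called in place of 2464 of 16173. At 48 h the deviations of same-lettered libraries of CB-839 and vehicle correlated at -0.523 to -0.066, so the letters did not pair these libraries. Without vehicle library C at 48 h, 5 of the 10 genes were called in place of 3. Same-lettered libraries of CB-839 and vehicle deviated together at 4 h and 24 h. With the replicate letter as a block among the 8 libraries compared, the calls went from 4 to 7 at 4 h and from 2 to 6 at 24 h, while those over all genes went from 2282 of 18274 to 4899 of 16210 and from 806 of 16269 to 3554 of 14900. The same block in the fit of 16 libraries left 4 and 2 of the 10 genes called, with 2913 of 18274 and 1840 of 16269 genes called in all. In the fit of 8 libraries the added calls had Odc1 and Srm lower (adjusted p = 0.0206 and 0.00261 at 4 h, 0.00159 and 0.00237 at 24 h) and Amd1 higher (adjusted p = 0.00681 and 0.000606) at both times and Azin1 higher at 24 h as well (adjusted p = 5.03e-05).

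With DON no difference was detected for the 10 genes at 4 h. At 24 h Odc1, Srm, Azin1, Sat1 and the 3 hypusine genes fell. At 48 h all 4 synthesis genes fell, with Azin1, Eif5a and Dohh, and Smox and Sat1 rose. At 4 h, 0 of the 10 genes and 0 of all 18274 genes (0% called) passed the edgeR test, with 1862 genes at an unadjusted p under 0.05. The 95% intervals of the 10 log2 fold changes at 4 h reached from -0.44 for Smox to 0.30 for Amd1. In the fit of the 8 libraries compared with the replicate letter as a block, Amd1 (0.19, adjusted p = 0.0257) and Smox (-0.25, adjusted p = 0.0137) were called, with 528 of 16465 genes, while the block in the fit of 16 libraries called 0 of all genes. At 24 h, 7 genes fell and 0 rose, where 58% of all genes changed, 29.9% down and 28.1% up. At 48 h, 7 fell and 2 rose, where 71.2% changed, 35.6% in each direction. The median log2 fold change of the 10 genes was -0.43 at 24 h and -0.58 at 48 h, against -0.005 and -0.002 over all genes.

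Srm with DON was at 417, 453, 394 and 433 CPM at 24 h and at 216, 221, 201 and 201 CPM at 48 h. Vehicle libraries held 887, 832, 655 and 688 CPM at 24 h and 537, 492, 752 and 548 CPM at 48 h, above every DON library of their time. The fall was 1.81-fold at 24 h (log2 -0.85, SE 0.08, adjusted p = 3.16e-08) and 2.78-fold at 48 h (-1.47, SE 0.11, adjusted p = 2.04e-09). Odc1 with DON was at 813, 832, 797 and 952 CPM at 24 h and at 385, 399, 401 and 369 CPM at 48 h. It fell 1.47-fold (-0.55, SE 0.06, adjusted p = 7.59e-08) and then 1.85-fold (-0.89, SE 0.06, adjusted p = 6.37e-11), with no overlap with vehicle at either time.

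Amd1 with DON was at 76.7, 74.4, 79.2 and 88.2 CPM at 24 h, within the vehicle range of 74.4 to 107 CPM, and the difference of -0.18 (SE 0.10, adjusted p = 0.123) was not called. It was called without the low-count filter, with the replicate block in the fit of 16 libraries and without vehicle library A (adjusted p = 0.0184 to 0.0417). At 48 h its libraries held 26.5, 28.9, 35.3 and 30 CPM against 85.2, 102, 56.2 and 69.4 CPM with vehicle, a 2.59-fold fall (-1.37, SE 0.14, adjusted p = 6.42e-08). Sms behaved alike in its calls, with 0.06 (SE 0.09, adjusted p = 0.618) at 24 h and -0.52 (SE 0.07, adjusted p = 1.34e-06) at 48 h. Azin1 with DON held 104, 101, 110 and 151 CPM at 24 h, overlapping vehicle at 127, 147, 179 and 190 CPM, and 48.3, 57.8, 66.4 and 58.2 CPM at 48 h, below vehicle at 135, 159, 86.8 and 117 CPM. It fell by 0.47 (SE 0.13, adjusted p = 0.00543) and by 1.11 (SE 0.14, adjusted p = 1.04e-06) on the log2 scale.

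Smox was higher than vehicle at 48 h. With DON it held 10.9, 12, 10.4 and 8.48 CPM at 24 h, where the difference from vehicle was -0.42 (SE 0.19, adjusted p = 0.0628), and 25.4, 23, 20.4 and 21.1 CPM at 48 h, above each vehicle library (8.46, 7.45, 12.8 and 11.5 CPM). At 24 h it was called lower with DESeq2, with the replicate block in the fit of 16 or of 8 libraries, in the fit of all 52 libraries and without vehicle library D (adjusted p = 0.000326 to 0.0446). The rise at 48 h was 2.24-fold (1.17, SE 0.13, adjusted p = 2.72e-07). Sat1 fell at 24 h, from 92.8, 93.0, 102 and 95.7 CPM with vehicle to 80.6, 75.5, 71.5 and 82.9 CPM with DON (-0.30, SE 0.05, adjusted p = 5.06e-05). At 48 h it rose, from 59.4, 62.3, 61.1 and 60.2 CPM to 77.7, 77.2, 83.4 and 82.4 CPM (0.40, SE 0.05, adjusted p = 7.55e-07).

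Eif5a with DON was at 2050, 2210, 1960 and 2420 CPM at 24 h and at 1770, 1830, 1790 and 1790 CPM at 48 h, below the vehicle ranges of 2720 to 3110 and 2580 to 3160 CPM. It fell by 0.45 (SE 0.06, adjusted p = 5.02e-06) and 0.63 (SE 0.07, adjusted p = 7.01e-08). Dohh fell by 0.62 at 24 h (SE 0.13, adjusted p = 0.0004) and by 0.46 at 48 h (SE 0.17, adjusted p = 0.0216), and the call at 48 h was lost without vehicle library C, where the difference was -0.22 (adjusted p = 0.0866). Dhps fell by 0.26 at 24 h (SE 0.06, adjusted p = 0.00102) and differed by -0.03 at 48 h (SE 0.06, 95% interval -0.15 to 0.08). Scaling to library totals alone put the median of all genes at 0.185 at 24 h and 0.186 at 48 h. It ended the 24 h calls of Sat1, Azin1 and Dhps (adjusted p = 0.0663, 0.0865 and 0.303) and the 48 h call of Dohh (adjusted p = 0.127), and made Sms higher with DON at 24 h (0.24, adjusted p = 0.0327) and Dhps higher at 48 h (0.16, adjusted p = 0.00846).

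**Figure D3:**
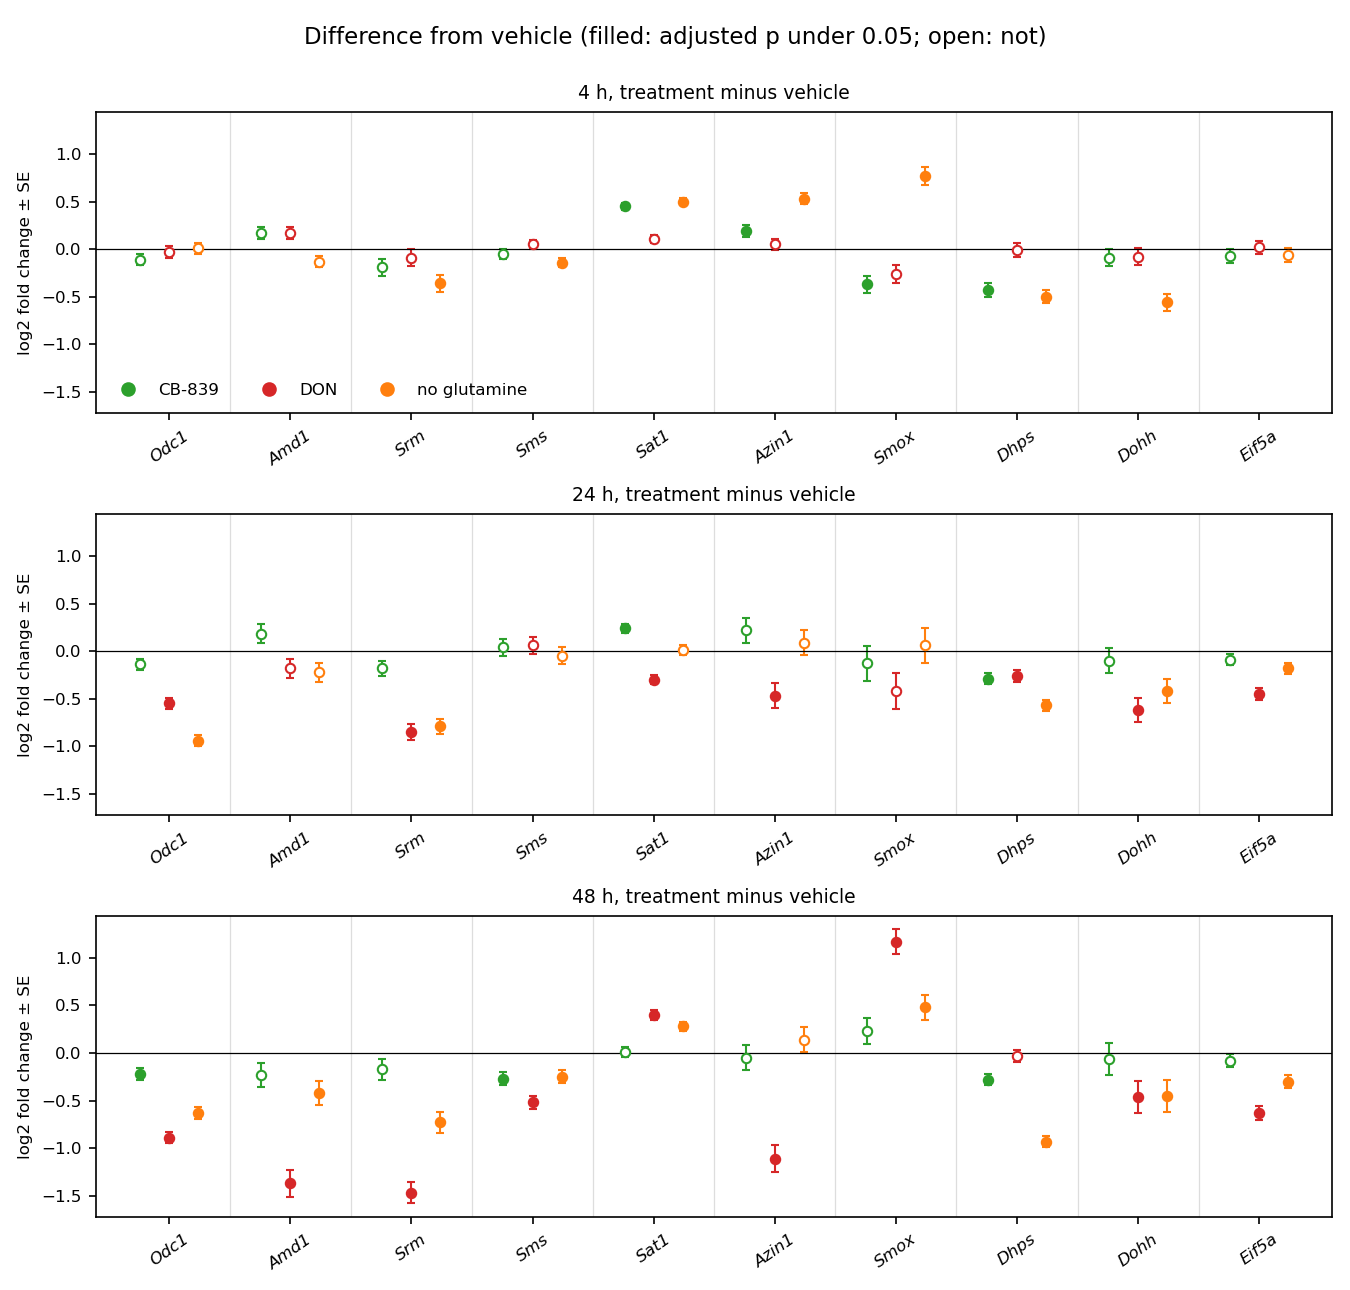
Log2 fold change from vehicle with its standard error for the 10 genes at 4 h (top), 24 h (middle) and 48 h (bottom) with CB-839, DON or no glutamine; filled points passed an adjusted p of 0.05. At 48 h Srm is lowest with DON, at -1.47, Smox is highest with DON, at 1.17, and Dhps is lowest without glutamine, at -0.93.

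The difference between DON and vehicle itself changed from 24 h to 48 h for 7 of the 10 genes, as tested by the interaction of treatment and time in the fit of all 52 libraries, where 26.9% of 21069 genes changed, 10.8% up and 16.1% down. The later difference was lower for Amd1 (-1.23, SE 0.16, adjusted p = 2.6e-08), Azin1 (-0.68, SE 0.17, adjusted p = 0.00215), Srm (-0.66, SE 0.17, adjusted p = 0.00225), Sms (-0.61, SE 0.12, adjusted p = 4.82e-05) and Odc1 (-0.37, SE 0.12, adjusted p = 0.0136). It was higher for Smox (1.55, SE 0.23, adjusted p = 1.19e-06) and Sat1 (0.67, SE 0.09, adjusted p = 2.07e-08). For the 3 hypusine genes the change was 0.19 for Dhps (95% interval -0.05 to 0.44), 0.12 for Dohh (-0.31 to 0.56) and -0.22 for Eif5a (-0.46 to 0.02), and none was called in this fit. Dhps was called with 4 other settings, such as the fit of the 32 libraries of 24 h and 48 h (0.22, adjusted p = 0.0389), and without vehicle library D at 24 h or vehicle library C at 48 h (0.27 and 0.26, adjusted p = 0.0462 and 0.0393).

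Without glutamine the genes had already moved at 4 h. Smox, Azin1 and Sat1 rose and Srm, Sms, Dhps and Dohh fell at that time, 3 and 4 of the 10, where 37.6% of all genes changed, 16.2% up and 21.4% down. At 24 h 5 fell and 0 rose, where 58.9% changed, 28.9% down and 30% up, and at 48 h 7 fell and 2 rose, where 54.3% changed, 26.3% down and 28% up. Odc1 was called lower at 24 h and 48 h and not at 4 h, and Dhps, Dohh and Srm were lower at each of the 3 times.

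Smox at 4 h held 89.9, 96.7, 92.5 and 121 CPM without glutamine against 56.9, 58, 58.7 and 60.8 CPM with vehicle. Every library without glutamine was higher, by 1.71-fold in the fit (0.77, SE 0.09, adjusted p = 2.36e-06). At 24 h the difference was 0.06 (SE 0.18, adjusted p = 0.782), and at 48 h the libraries held 15, 14.6, 12.9 and 13.4 CPM against 8.46, 7.45, 12.8 and 11.5 CPM (0.48, SE 0.13, adjusted p = 0.00558). Sat1 rose at 4 h by 0.50 (SE 0.04, adjusted p = 6.81e-08) and at 48 h by 0.28 (SE 0.05, adjusted p = 0.000101), and differed by 0.01 at 24 h (SE 0.05, adjusted p = 0.906). Azin1 at 4 h held 194, 179, 167 and 195 CPM against 127, 127, 126 and 129 CPM, a rise of 0.53 (SE 0.06, adjusted p = 1.14e-06), and at 24 h and 48 h it differed from vehicle by 0.09 and 0.14 (SE 0.13 for both, adjusted p = 0.577 and 0.395).

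Odc1 without glutamine was at 1030, 913, 905 and 1110 CPM at 4 h, on both sides of the vehicle range of 950 to 1030 CPM. At 24 h it held 677, 649, 628 and 640 CPM against 1300, 1280, 1220 and 1180 CPM, a 1.92-fold fall (-0.94, SE 0.06, adjusted p = 2.27e-11), and at 48 h 488, 477, 480 and 419 CPM against 763, 728, 697 and 696 CPM (-0.63, SE 0.06, adjusted p = 2.54e-08). Both falls are free of overlap between groups. Srm fell by 0.36 (SE 0.09, adjusted p = 0.005) at 4 h, by 0.79 (SE 0.08, adjusted p = 5.79e-08) at 24 h and by 0.73 (SE 0.11, adjusted p = 2.59e-05) at 48 h. Sms fell by 0.14 at 4 h and 0.25 at 48 h, and its 4 h call (adjusted p = 0.0273) was lost without vehicle library A or B or no-glutamine library C (adjusted p = 0.0648 to 0.118). Amd1 fell at 48 h by 0.42 (SE 0.13, adjusted p = 0.0131), which was lost without vehicle library B (-0.26, adjusted p = 0.0712).

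Dhps was the hypusine gene with the largest fall at 24 h and 48 h, and Dohh at 4 h. Without glutamine it held 61.1, 58.2, 54.4 and 66.6 CPM at 4 h, 64.4, 61.7, 62.7 and 61.5 CPM at 24 h and 42.4, 43.5, 42.5 and 39.1 CPM at 48 h. With vehicle it held 88.1, 87.9, 82.4 and 81.1 CPM, then 96.1, 94.2, 92.1 and 88.3 CPM, then 79.9, 73.3, 88.1 and 77.8 CPM. The groups did not overlap at any time, and the fall was 1.41-fold at 4 h (-0.50, SE 0.07, adjusted p = 1.04e-05), 1.48-fold at 24 h (-0.57, SE 0.06, adjusted p = 1.44e-07) and 1.90-fold at 48 h (-0.93, SE 0.06, adjusted p = 2.48e-10). Dohh fell by 0.56, 0.42 and 0.45 at the 3 times, and the 48 h call was lost without vehicle library C (-0.21, adjusted p = 0.128), no-glutamine library A (adjusted p = 0.0679) or no-glutamine library D (adjusted p = 0.11). Eif5a differed by -0.06 at 4 h (SE 0.07, adjusted p = 0.535) and fell by 0.18 at 24 h and 0.30 at 48 h (SE 0.06 and 0.07).

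Scaling to library totals put the median of all genes at 0.127 at 24 h and 0.123 at 48 h without glutamine (0.025 and 0.022 otherwise), and ended the calls of Eif5a at 24 h (adjusted p = 0.212) and of Amd1, Sms and Dohh at 48 h (adjusted p = 0.0631, 0.0852 and 0.0669). The interaction with time was called for Dhps (-0.36, SE 0.13, adjusted p = 0.0396) and Sat1 (0.28, SE 0.09, adjusted p = 0.0164) of the 10 genes, where 17.6% of all genes were called, 9.84% up and 7.78% down. Odc1 missed the threshold in the fit of all 52 libraries (0.32, SE 0.12, adjusted p = 0.0559) and passed it in each fit with 1 library left out (adjusted p = 0.00267 to 0.0248). Without vehicle library D at 24 h, 4 of the 10 were called, Smox among them (0.60, adjusted p = 0.0246). For CB-839 the interaction was called for 0 of the 10 genes and 0.926% of all genes by edgeR (0.508% up, 0.418% down), with DESeq2 calling Sat1 (-0.23, adjusted p = 0.0128).

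DON and the absence of glutamine were compared directly, since both bear on the use of glutamine. At 48 h 9 of the 10 genes differed, 6 higher and 3 lower without glutamine, where 68.6% of all genes did, 34.6% higher and 34.1% lower. Azin1 was 2.38-fold higher without glutamine than with DON (1.25, SE 0.14, adjusted p = 2.82e-07), at 129, 135, 133 and 152 CPM against 48.3, 57.8, 66.4 and 58.2 CPM. Amd1 was 1.94-fold higher (0.95, SE 0.14, adjusted p = 6.8e-06), Srm 1.67-fold (0.74, SE 0.11, adjusted p = 1.39e-05) and Eif5a 1.26-fold (0.33, SE 0.07, adjusted p = 0.000202). Dhps was 1.86-fold lower without glutamine (-0.89, SE 0.06, adjusted p = 1.11e-10) and Smox 1.61-fold lower (-0.69, SE 0.13, adjusted p = 0.00012). Dohh differed by 0.01 (SE 0.17, adjusted p = 0.943). Sat1 was called lower without glutamine (-0.12, SE 0.05, adjusted p = 0.0383), and that call was lost without DON library C or D or no-glutamine library A, B or C (adjusted p = 0.0529 to 0.122).

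At 24 h, where 58.9% of all genes differed between these 2 groups, 6 of the 10 did, 4 higher and 2 lower without glutamine (28.7% and 30.2% of all genes). Odc1 was 1.31-fold lower without glutamine (-0.39, SE 0.06, adjusted p = 5.58e-06), and Dhps was lower as well (-0.30, SE 0.06, adjusted p = 0.000275). Azin1 (0.56, SE 0.13, adjusted p = 0.00131), Sat1 (0.31, SE 0.05, adjusted p = 3.12e-05), Eif5a (0.27, SE 0.06, adjusted p = 0.00104) and Smox (0.48, SE 0.19, adjusted p = 0.0324) were higher. Same-lettered libraries of these 2 groups deviated together, and with the replicate letter as a block Dohh was called as well (0.22, adjusted p = 0.0384). The call of Smox was lost without DON library A, C or D or no-glutamine library A, B or C (adjusted p = 0.0635 to 0.109). At 4 h 8 of the 10 differed, 3 higher and 5 lower, where 36.1% of all genes did (16% and 20.1%), led by Smox, 2.05-fold higher without glutamine (1.03, SE 0.09, adjusted p = 7.65e-08). The call of Srm at 4 h (-0.27, SE 0.09, adjusted p = 0.0305) was lost without DON library A or B or no-glutamine library B or C (adjusted p = 0.0989 to 0.107).

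CB-839 and DON, both at 1 µM, were compared directly. At 4 h, DON libraries had 1.34-fold more Dhps (0.42, SE 0.07, adjusted p = 0.00031) and 1.27-fold less Sat1 (-0.34, SE 0.04, adjusted p = 3.62e-05) than CB-839 libraries, and these were the 2 of the 10 genes called, where 16% of all genes were, 7.67% higher and 8.32% lower. At 24 h 7 of the 10 were lower with DON and 0 higher, where 59.7% of all genes differed (30.8% lower and 29% higher), and at 48 h 7 were lower and 3 higher, where 70.4% differed (34.7% lower and 35.7% higher). The 3 that were higher at 48 h were Smox (0.94, SE 0.13, adjusted p = 3.59e-06), Sat1 (0.39, SE 0.05, adjusted p = 1e-06) and Dhps (0.24, SE 0.06, adjusted p = 0.000944). The largest fall with DON against CB-839 was that of Srm, 2.46-fold at 48 h (-1.30, SE 0.11, adjusted p = 1.09e-08). Dohh was called lower at 48 h (-0.41, SE 0.17, adjusted p = 0.0408), a call lost without CB-839 library A, B or C or DON library B, C or D.

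The absence of glutamine differed from CB-839 in 4 of the 10 genes at 4 h, 6 at 24 h and 5 at 48 h, where 31.3%, 58% and 51% of all genes differed. Higher without glutamine were 2, 0 and 1 of the 10 (12.9%, 29.1% and 26.6% of all genes), and lower were 2, 6 and 4 (18.5%, 28.9% and 24.4%). Smox at 4 h was 2.20-fold higher without glutamine (1.14, SE 0.09, adjusted p = 5.09e-08), Odc1 at 24 h was 1.74-fold lower (-0.80, SE 0.06, adjusted p = 2.94e-10) and Dhps at 48 h was 1.57-fold lower (-0.65, SE 0.06, adjusted p = 3.02e-08). At 4 h Dhps (-0.07, SE 0.07, adjusted p = 0.483) and Sat1 (0.04, SE 0.04, adjusted p = 0.482) were not called between these 2 groups. At 24 h, where same-lettered libraries deviated together, the replicate block added Smox to the calls (0.21, adjusted p = 0.0365), and the call of Dohh (-0.31, SE 0.13, adjusted p = 0.0428) was lost when any of 5 libraries was left out.

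The other genes of the pathway were followed through 7 lists with 42 genes, chosen for their roles. With vehicle at 24 h, 19 of the 36 list genes tested rose and 13 fell against unstimulated cells, 88.9% in all against 84.2% of all genes. Against vehicle, the share of list genes called was 20% with CB-839 and 40% without glutamine at 4 h, 9.09%, 54.5% and 69.7% with CB-839, DON and no glutamine at 24 h, and 30.3%, 69.7% and 57.6% at 48 h, of 35, 33 and 33 genes tested. Over all genes these shares were 12.5% and 37.6% at 4 h, 4.95%, 58% and 58.9% at 24 h, and 15.2%, 71.2% and 54.3% at 48 h.

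With vehicle at 24 h, 3 of the 4 genes of the antizyme list fell and 0 rose against unstimulated cells, where 45.5% of all genes fell: Oaz1 (-0.62, SE 0.14), Oaz2 (-0.94, SE 0.06) and Oaz3 (-2.81, SE 0.33), while the second antizyme inhibitor Azin2 was not called. Oaz2, picked out after its values were seen, held 24.8, 24.7, 25.2 and 24.2 CPM in unstimulated cells and 12.8, 12.3, 13.2 and 12.6 CPM with vehicle at 24 h. Without glutamine it held 23.7, 22.9, 23 and 20.9 CPM at 24 h, a rise of 0.84 over vehicle (SE 0.06, adjusted p = 3.56e-10), and with DON 22.6, 22.2, 23.3 and 22.7 CPM at 48 h, a rise of 0.86 (SE 0.08, adjusted p = 1.42e-08). The CB-839 libraries stayed between 10.6 and 14.3 CPM at 24 h and 48 h. Of the 7 transport and oxidation genes tested, 3 rose and 4 fell with vehicle at 24 h, with a median of -0.88 against -0.18 over all genes. Atp13a3, a polyamine transporter, rose by 1.52 with vehicle at 24 h and Paox, the acetylpolyamine oxidase, by 1.63. Slc22a3, an organic cation transporter, fell by 3.26, and it was higher than vehicle with DON at 48 h (2.81, SE 0.49) and without glutamine at 48 h (1.63, SE 0.54).

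Genes of arginine and ornithine supply came next. Slc7a1, a transporter of arginine, held 444, 422, 397 and 371 CPM with vehicle at 24 h. It held 256, 250, 268 and 272 CPM with DON, below every vehicle library, and 676, 662, 662 and 621 CPM without glutamine, above every one. At 48 h the difference from vehicle was -1.66 with DON (SE 0.07, adjusted p = 2.79e-13) and 0.76 without glutamine. Aldh18a1, which makes the glutamate semialdehyde from which ornithine and proline arise, showed the same order at 48 h, with 128, 135, 130 and 128 CPM with DON, 264, 246, 255 and 267 CPM with vehicle and 445, 467, 448 and 426 CPM without glutamine. Oat, which links glutamate semialdehyde and ornithine, rose by 1.42 with vehicle at 24 h and fell by 0.95 without glutamine and by 0.36 with DON at that time. Arg1, an arginase, was higher without glutamine at 24 h (1.51, SE 0.43, adjusted p = 0.00492) and 48 h (1.16, SE 0.42, adjusted p = 0.0279).

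Mat2a, which makes S-adenosylmethionine, the substrate of Amd1, was higher with DON. It held 288, 316, 337 and 373 CPM with vehicle and 575, 561, 586 and 596 CPM with DON at 24 h, and 383, 437, 322 and 361 CPM and 689, 741, 837 and 793 CPM at 48 h. Every DON library was higher than every vehicle library, by 0.82 at 24 h and by 1.03 at 48 h (SE 0.08, adjusted p = 8.18e-10). Without glutamine Mat2a fell by 0.21 and 0.68 at these times. Of the 7 genes that recycle methylthioadenosine, the by-product of spermidine and spermine synthesis, 5 fell and 1 rose with DON at 48 h, where 35.6% of all genes went in each direction. Mtap, the first of them, fell by 1.32 (SE 0.07, adjusted p = 2.94e-12) and Enoph1 by 1.46 (SE 0.07, adjusted p = 1.17e-12), while Kyat1 rose by 1.45 without glutamine at 24 h (SE 0.09, adjusted p = 8.17e-11).

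**Figure D4:**
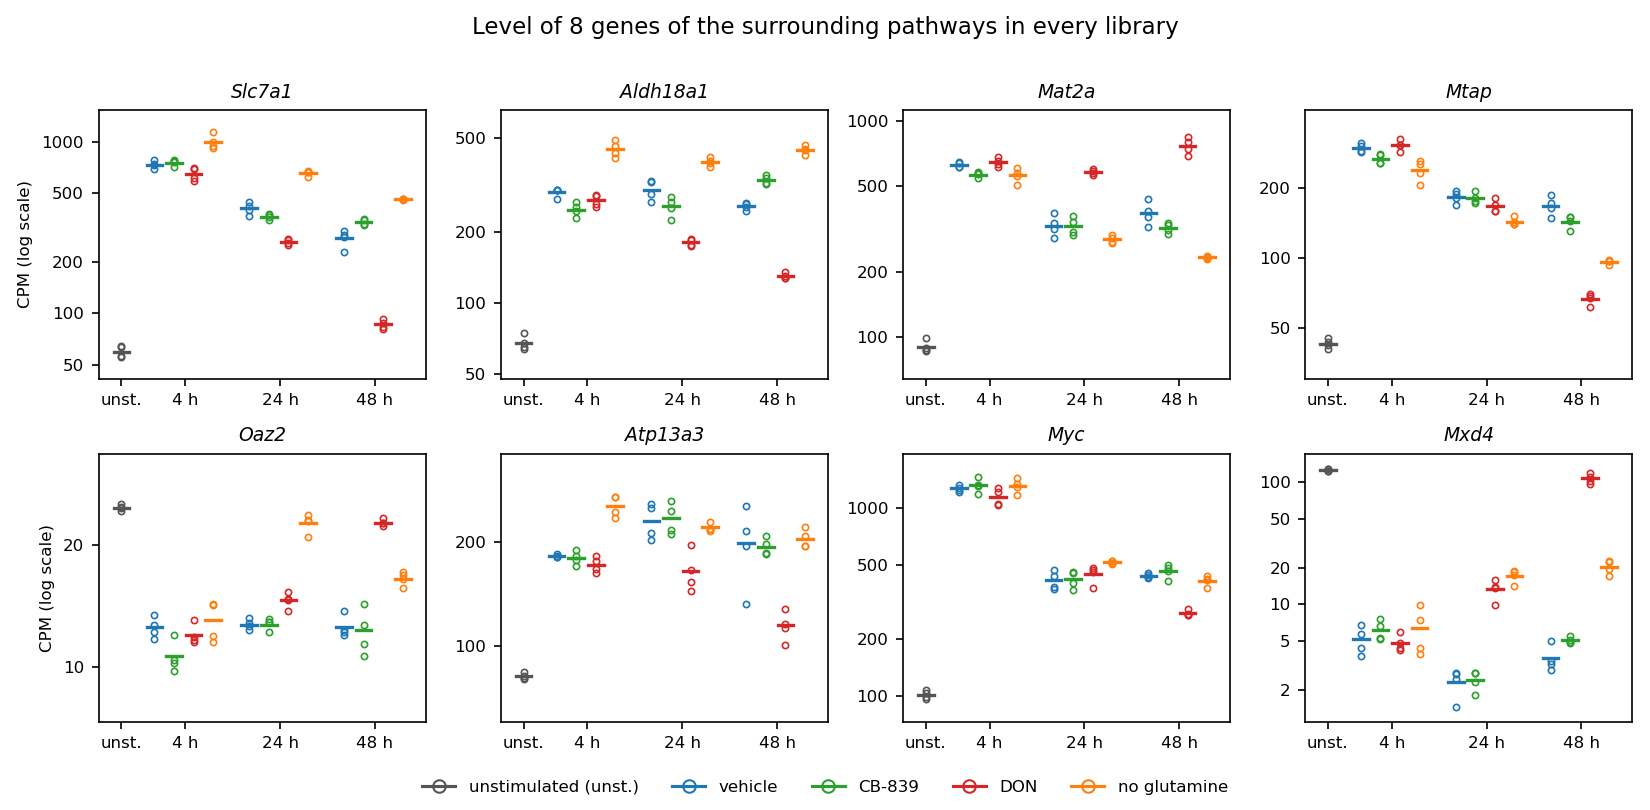
Level (CPM, log scale) of 8 genes of the surrounding pathways in every library, by time and treatment; points are libraries and bars are means of 4. At 48 h Slc7a1 lies between 81.0 and 92.7 CPM with DON and between 454 and 466 CPM without glutamine, and Mxd4 between 96 and 118 CPM with DON.

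The MYC family was followed because MYC is known to drive transcription of Odc1. Myc rose by 3.68 on the log2 scale at 4 h with vehicle and stood 2.05 and 2.10 above unstimulated cells at 24 h and 48 h. With DON at 24 h Myc held 467, 455, 479 and 374 CPM, overlapping vehicle at 469, 434, 370 and 382 CPM (0.10, not called), and without glutamine it was higher (0.32). At 48 h Myc fell with DON by 0.66, from 429, 426, 440 and 451 CPM to 273, 291, 269 and 269 CPM. Mxd4, a partner of MAX that represses E-box genes, fell from 122, 128, 123 and 128 CPM in unstimulated cells to 3.76, 4.43, 6.81 and 5.69 CPM at 4 h with vehicle. It was higher than vehicle at 24 h with DON (2.51, SE 0.17, adjusted p = 4.19e-10) and without glutamine (2.86, SE 0.17, adjusted p = 2.24e-11), and at 48 h it held 118, 102, 96 and 110 CPM with DON (4.87, SE 0.14, adjusted p = 1.74e-15) and 19.6, 22.8, 17.1 and 22.1 CPM without glutamine (2.48, SE 0.13). Mxd1, of the same family, rose by 2.01 with DON at 48 h (SE 0.10, adjusted p = 3.17e-12). The part of these genes in the changes of the 10 genes was not tested.

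Over the 13 group means of log2 CPM, Srm and Eif5a followed each other most closely of the 45 pairs among the 10 genes (Pearson r = 0.977), then Odc1 and Srm (0.947). Amd1 was closest to Azin1 (0.888). Smox had r between -0.548 (with Sms) and 0.191 (with Sat1), and Sat1 between -0.433 (with Dohh) and 0.191, so both stood apart from the others. These points share libraries, the separate scaling of each time and the jump from unstimulated to activated cells, and the values are a description. Among the 8083 genes whose log2 CPM averaged 3 or more, the 2 most like Srm were Umps (0.9951) and Nop2 (0.9945), and those most like Eif5a were Smyd5 (0.9902) and Ppa1 (0.9888). Odc1 was most like Mtmr2 (0.9807) and Nmt2 (0.9782), and Amd1 most like its copy Amd2 (0.9917) and Larp4 (0.9801). Sms was nearest to Vma21 (0.9842) and Alg13 (0.9758), Azin1 to Ppp4r2 (0.9744) and Eif1a (0.9708), and Smox to Arih2 (0.9721) and Stard3 (0.9693). Dhps was nearest to Phykpl (0.9723) and Slc25a1 (0.9544), and Dohh to Yif1b (0.9796) and Prpf19 (0.974). For Sat1 the nearest were Slc30a1 (0.8659) and Nufip2 (0.8395), and no gene passed 0.9, whereas 464 genes passed it for Srm.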

How the data were processed

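Read counts per gene were deposited by the authors as 1 table of 52 RNA libraries, made with featureCounts 2.0.1 on the GENCODE M25 annotation, paired reads, exons summed by gene and no strand option, per the file header; the build was mm10, and the labels' protocols describe stranded libraries. The submitters' processing notes also name STAR, Bowtie2, MACS2, FastQC and deepTools, with no versions given in the sources used here. The peak lists deposited by the authors hold a score, a signal and a −log10 of the irreproducible discovery rate (threshold 0.05) for each peak. They were used for peak positions, which are the authors' own calls, and for ranks by signal. In all, 1 list stands for each treatment and mark.

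Counts were tested with edgeR 4.0.16 (R 4.3.3), the robust quasi-likelihood test with TMM factors and filterByExpr, in 1 fit of 16 libraries per time, 1 fit of unstimulated and vehicle libraries, and 1 fit of all 52 libraries for interactions. Adjusted p is by Benjamini-Hochberg over all genes of a fit, with a threshold of 0.05. In simulated data for DON at 24 h, in a fit of 15268 genes, 95% of 100 genes changed by 0.5 and 100% of 100 genes changed by 1 on the log2 scale were recovered, and 13 unchanged genes were called. These values were 88%, 97% and 8 for CB-839 at 4 h (17238 genes) and 92%, 99% and 9 for DON at 48 h (14995 genes). Only these genes were changed, as many up as down, all above a minimum level with vehicle. The other groups were set to the vehicle mean. In the data 58% of genes were called with DON at 24 h and 71.2% at 48 h. The simulated shares do not cover a setting where most genes differ. Alternatives were DESeq2 1.42.0, other scalings, no filter, other sets of libraries, the replicate letter as a block, and each library left out. The 10 genes and the related lists were chosen with earlier results of these data known. All 10 genes are described. A related gene is named where it passed the threshold with an absolute log2 fold change of at least 1 against unstimulated cells, or against vehicle at 24 h or 48 h, at most 3 per list and comparison, and the other values of a gene so named are given beside it. Related genes outside that rule were picked out after their values were seen.

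Letters were taken to pair libraries where the deviations from the group means of each same-lettered pair correlated at over 0.1. Among comparisons with vehicle this held at 4 h for CB-839 (0.59 to 0.693) and for DON (0.201 to 0.676), and at 24 h for CB-839 (0.592 to 0.76). Between treatments it held at 24 h for medium without glutamine set against CB-839 (0.1 to 0.422) or DON (0.119 to 0.362), and at 48 h for the pair of compounds (0.179 to 0.306). What a letter stands for is not stated in the labels.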

Additional observations from a re-analysis of the deposited data

Results flagged for a closer look

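In 3 of the 130 combinations of gene and group, 1 library lay far from the other 3, where chance alone picks out about 1 in 20. Odc1 without glutamine at 48 h was 419 CPM in library D against 477 to 488 CPM in the others. Sms with DON at 24 h was 114 CPM in library D against 87.1 to 90.4 CPM. That library had the lowest total of all, at 25626587 counts. It was also the highest of its group for Odc1, Amd1, Sat1, Azin1 and Eif5a, and the lowest for Smox, Dhps and Dohh. Smox in unstimulated cells was 25.4 CPM in library C against 26.8 to 26.9 CPM.

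The difference from vehicle changed between 24 h and 48 h in 9 of 30 tests of the interaction in edgeR. These were 7 of 10 with DON, 2 of 10 without glutamine and 0 of 10 with CB-839. Over all 21069 genes the shares were 26.9%, 17.6% and 0.926%, so the 2 without glutamine lie near the share of all genes. With DON the later difference was lower on the log2 scale for Odc1 (-0.37), Amd1 (-1.23), Srm (-0.66), Sms (-0.61) and Azin1 (-0.68), and higher for Sat1 (0.67) and Smox (1.55). Without glutamine it was higher for Sat1 (0.28) and lower for Dhps (-0.36).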

How the results depend on the processing

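Of 260 pairs of gene and comparison, 155 were called; 123 of these kept call and direction under every alternative run, 32 lost the call under at least 1, and 0 reversed. Of the 105 not called, 42 were called under some alternative. Dhps with DON at 48 h, not called at -0.03, reversed to 0.16 with library totals. Counts of the 10 genes called moved as follows, and the cause was not tested. For vehicle at 48 h against 24 h (7), the count was 3 without the low-count filter, 2 with the replicate block in the fit of the 8 libraries compared, and 3 to 6 with 1 library left out. Over all genes the calls were 5944 of 18317, then 4924 of 38806 without the filter and 3323 of 14712 with that block. Deviations of same-lettered vehicle libraries at 24 h and 48 h correlated at -0.653 to -0.22, so the letters did not pair these libraries. Counts over all genes with 1 library left out are not given here. For CB-839 against vehicle, the fit of all 52 libraries gave 2, 1 and 1 at 4 h, 24 h and 48 h (4, 2 and 3 otherwise), and the replicate block among 8 libraries gave 7, 6 and 0, while genes called in all went from 2282, 806 and 2464 to 4899, 3554 and 331. The letters did not pair CB-839 and vehicle libraries at 48 h. In the fit of all 52 libraries, genes called in all were 1518, 229 and 1166 of 21069. With 1 library left out the counts of the 10 genes were 2 to 4 at 4 h and 3 to 5 at 48 h. For DON against vehicle at 4 h (0), the replicate block among 8 libraries gave 2, with 528 of 16465 genes called in all. DON against CB-839 at 4 h (2) gave 4 with library totals, where all genes called went from 2922 to 3449 of 18274. No glutamine against CB-839 at 48 h (5) gave 9 in the fit of 8 libraries, with or without the replicate block. There, genes called in all were 9298 of 14976 without the block and 9821 with it, in place of 8250 of 16173. The interaction of CB-839 with time (0) gave 1 with DESeq2 and 0 to 1 with 1 library left out, and that of no glutamine (2) gave 3 to 4. For CB-839 the genes called in all went from 195 of 21069 to 862 of 21068 with DESeq2. For no glutamine they were 3713 of 21069, then 3517 of 42080 without the low-count filter and 5025 of 17257 in the fit of 32 libraries. A window of 2500 bases put 1 of the 10 genes beside an H3K27me3 peak with vehicle and 1 with CB-839, against 0. The share of all genes within that wider window was not counted. No value could be had at the stricter rate of 0.01 for the H3K27ac lists of vehicle, CB-839 and no glutamine, which hold 0 such peaks.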
